A study of Drosophila melanogaster with 24 samples.

Results

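The 73 Drosophila melanogaster genes whose symbols begin with mRpL or mRpS and a number encode proteins of the mitochondrial ribosome. They were chosen by symbol from 17830 FlyBase genes in the deposited tables, with earlier results of these data known. The set holds 47 genes named for the large subunit (mRpL) and 26 named for the small subunit (mRpS). Subunit counts and shares below follow the symbol. All 73 were listed in each of the 24 libraries, and all 73 were tested in each of the 5 comparisons.

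The mitochondrial ribosome translates the few messenger RNAs of the mitochondrial genome, which encode core subunits of the respiratory chain and the ATP synthase. Its proteins are encoded in the nucleus, made in the cytoplasm and imported, so that building it draws on both genomes. Members with low numbers are named after bacterial ribosomal proteins, whereas most members with high numbers belong to the mitochondrial particle alone. In the Drosophila midgut, intestinal stem cells renew the epithelium through enteroblasts, which become absorptive enterocytes, while other daughters become hormone-secreting enteroendocrine cells.

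Messenger RNA was measured by RNA-seq in 7 groups. The midgut set held 4 libraries each of lacZ flies at 30 days, of flies with an RNAi hairpin against Adar at 10 days, and of lacZ flies at 10 days. All 3 of these groups carried an esg driver that acts in stem cells and enteroblasts and is switched by temperature. The second set held 3 libraries each of a Zn72D knockdown, its control, an overexpression of the E374A mutant of the RNA editing enzyme ADAR, and its control, with both controls titled WT. No age is given for the second set, and its tissue label is whole organism, whereas the extraction text of all 24 libraries describes stem cells sorted from midguts. lacZ is a bacterial gene in common use as a control transgene. The labels do not state that replicates came from separate animals. The p-values thus describe the spread among these libraries alone, which may be technical. In such bulk samples, fewer cells of a type and less RNA per cell cannot be told apart.

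Several libraries stood apart from their labels. Adar stood at 879, 801 and 31.5 TPM (transcript abundance scaled by length and depth) in the libraries labelled E374A control and at 17.2, 14.5 and 15.8 TPM in those labelled E374A overexpression. The transgene's label and its transcript therefore ran in opposite directions, and these groups are named below only as labelled. The library labelled E374A control 3 had the midgut libraries' table format and a level of the stem cell gene esg of 323 TPM, against 10.1 and 20.6 TPM in labelled controls 1 and 2. The libraries labelled E374A overexpression and the Zn72D controls were taken as the same reads, pair by pair, because coverage agreed to within 0.1% for 68, 66 and 67 of the 73 genes in the matched pairs and for 0 in every other pairing. Adar was lower in Adar knockdown libraries, at 16.0, 11.2, 23.5 and 7.78 TPM, than in 10-day lacZ libraries, at 29.2, 37.5, 45.7 and 38.6 TPM. Zn72D stood at 10.6, 17.9 and 16.0 TPM in knockdown libraries and at 18.6, 18.1 and 16.9 TPM in their controls, so that these groups overlapped. Progenitor markers summed to 1281 to 2990 TPM over the midgut libraries, and to 52.7 to 90.1 TPM over the 11 libraries of the other table format, in which enterocyte markers summed to 60372 to 75220 TPM.

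The 73 genes lie on chromosome arms 3R (21), 3L (17), 2L (12), 2R (12) and X (11) of the dm6 build, and all are annotated as protein-coding. Their exons cover 327 to 2078 bases, with a median of 783. Exons of 43 of the genes overlap those of a neighbour, on the opposite strand in 41 and on the same strand in 2. The overlap reaches 20% or more of the member's exon bases in 8 genes, mRpL13, mRpL17, mRpL48, mRpL53, mRpS9, mRpS14, mRpS21 and mRpS24. For mRpL13 and mRpL53 the neighbour is on the same strand, so that no strand setting separates the reads. For the rest it is on the opposite strand, and the strand setting of the authors' counting is not given in the sources used here. The values of these 8 are therefore uncertain.

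Summed over the 73 genes, the mitoribosomal transcripts were lowest of the midgut set at 30 days. They amounted to 3346, 2707, 2698 and 2586 TPM in 30-day lacZ libraries, 3045, 3014, 2821 and 4025 TPM in Adar knockdown libraries, and 5558, 3469, 3214 and 3280 TPM in 10-day lacZ libraries. The group means were 2834 ± 346, 3226 ± 542 and 3880 ± 1124 TPM (SD, n = 4 each). Libraries 2, 3 and 4 at 30 days lay below every 10-day lacZ library, and 10-day lacZ library 1 lay far above the rest of its group. The Adar knockdown libraries overlapped both lacZ groups.

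The second set had lower sums. They were 2204, 1770 and 2148 TPM in Zn72D knockdown libraries and 1977, 1849 and 1853 TPM in their controls. The libraries labelled E374A overexpression had 1928, 1848 and 1847 TPM, and those labelled control had 2127, 2118 and 3502 TPM. Only the labelled control 3, with its midgut-like esg level, reached the range of the midgut set.

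**Figure D1:**
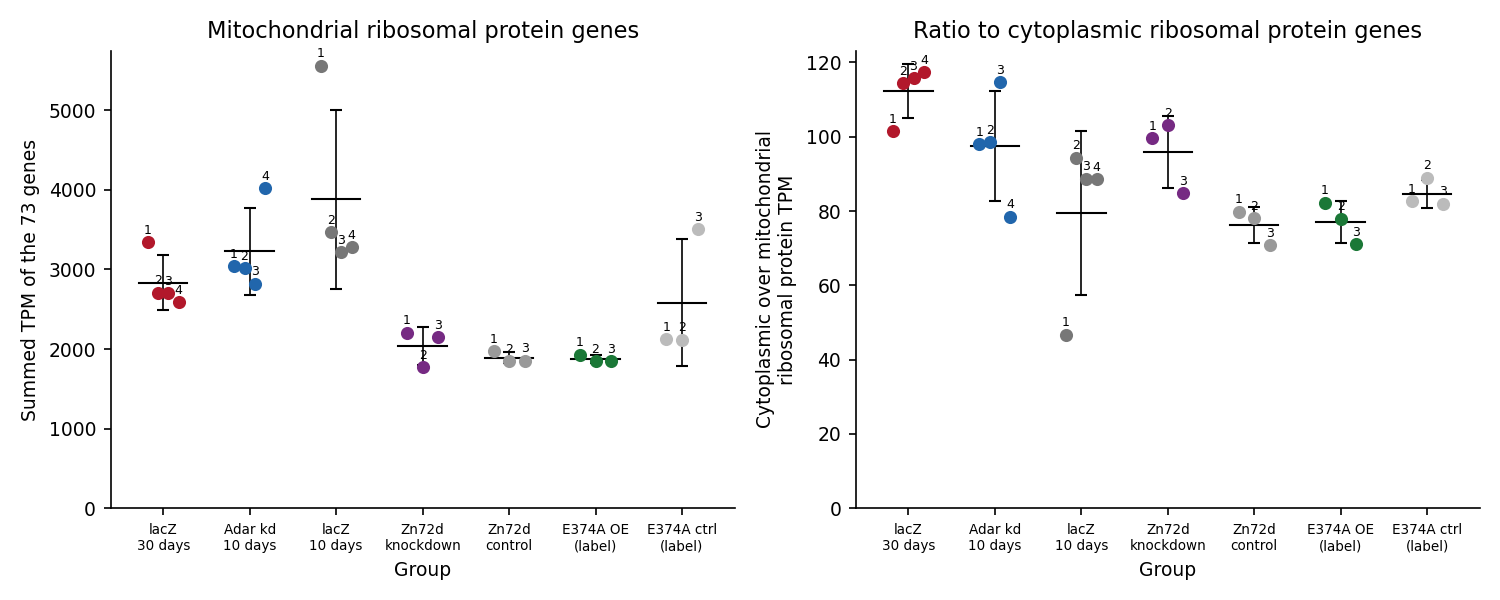
Summed TPM of the 73 mitochondrial ribosomal protein genes (left) and the ratio of the summed TPM of cytoplasmic ribosomal protein genes to it (right), for each library by group. Points are libraries with their replicate numbers, long bars are group means and error bars are SDs; 10-day lacZ library 1 has the highest sum, 5558 TPM, and the lowest ratio, 46.7.

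The large subunit supplied 58.5 to 62.9% of the sum in midgut libraries and 62.3 to 65.9% in the 11 others. Cytoplasmic ribosomal protein transcripts, which serve the translation of nuclear genes, exceeded the mitoribosomal sum 101-, 114-, 116- and 117-fold at 30 days, against 46.7-, 94.3-, 88.7- and 88.5-fold in 10-day lacZ libraries. These ratios did not overlap between the ages. In Adar knockdown libraries the ratio was 98.0, 98.5, 115 and 78.5, which overlapped both lacZ groups. Nuclear genes of oxidative phosphorylation, the pathway that the mitoribosome supplies with subunits, summed to 3.89 to 5.62 times the mitoribosomal sum in midgut libraries and to 7.27 to 10.2 times it in the 11 others.

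Single members differed widely within a library, although their proteins are parts of the same particle. TPM is scaled by transcript length, which allows a rough comparison of levels between genes. Whether that scaling holds for the shortest transcripts was not tested. The highest mean over the 12 midgut libraries was that of mRpS9, a small subunit protein of bacterial descent, at 224 TPM, against 53.3 TPM over the 11 libraries of the other format. Next came mRpS26 at 157 against 31.3 TPM, mRpL55 at 137 against 19.1 TPM, mRpL28 at 113 against 73.8 TPM and mRpL30 at 113 against 33.6 TPM. The lowest midgut means were those of mRpS24 (6.52 TPM), mRpS21 (7.10 TPM), mRpL17 (8.34 TPM), mRpL34 (8.81 TPM) and mRpS2 (9.91 TPM). Exons of mRpS9, mRpS24, mRpS21 and mRpL17 overlap a neighbour on the opposite strand by at least 20%.

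The 11 libraries of the second format ranked the genes differently. There mRpL28 led at 73.8 TPM, followed by mRpS5 at 66.0 TPM, mRpS9 at 53.3 TPM, mRpL12 at 50.2 TPM and mRpS7 at 48.5 TPM. mRpL12 is the stalk protein that takes part in recruiting translation factors. The lowest were mRpL34 at 1.39 TPM, mRpL33 at 5.06 TPM, mRpL11 at 13.4 TPM, mRpS18C at 15.2 TPM and mRpL44 at 15.6 TPM. Across the 73 genes, mean levels in both sets correlated weakly, with a Spearman rho of 0.344 and a Pearson r of 0.40 on the log2(TPM + 1) scale, as a description over genes that share libraries and table formats. The mean was higher in midgut libraries for 51 genes and lower for 22, and the ratio was above 3 in 11 genes and below 0.5 in 7.

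For 19 genes the median rank among the 73 differed by over 30 places. The largest shifts towards a higher rank in midgut libraries were those of mRpL55, by 53 places, and mRpS6, by 50. In the same direction went mRpL14, mRpL38, mRpS31, mRpL11, a protein at the base of the stalk, mRpL15 and mRpS28. Lower ranks in midgut libraries were seen for mRpL9, by 53 places, for mRpL10, the protein that anchors the stalk, by 50, and for mRpL52, by 46. The others with lower ranks were mRpL17, mRpL35, mRpL27, mRpL45, mRpL42, mRpS2, mRpS16 and mRpS11. In mammals the counterpart of mRpL45 lies where the ribosome meets the inner membrane, and bacterial L27 reaches into the peptidyl transferase centre.

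mRpL55 shows the contrast library by library. It had 140, 92.2, 108 and 111 TPM in 30-day lacZ libraries, 132, 140, 119 and 236 TPM in Adar knockdown libraries and 199, 137, 114 and 111 TPM in 10-day lacZ libraries. In the second set it had 21.7, 16.0 and 21.7 TPM in Zn72D knockdown libraries and 21.1, 17.2 and 20.5 TPM in their controls. The libraries labelled E374A overexpression had 20.9, 17.0 and 20.4 TPM and those labelled control 18.1, 15.4 and 129 TPM. Every library of the midgut format, the labelled control 3 included, lay above every library of the other format. Tissue and table format cannot be told apart in this contrast, and no test was made of it.

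**Figure D2:**
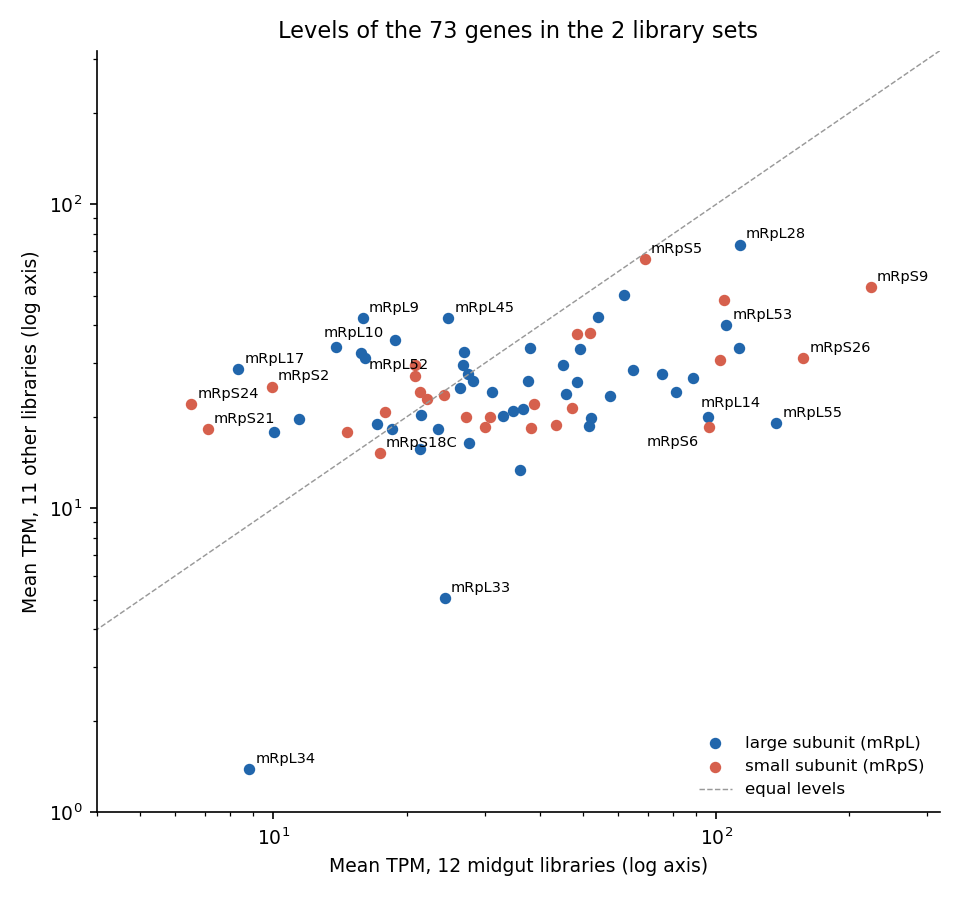
Mean TPM of each of the 73 genes over the 12 midgut libraries (x, log axis) and over the 11 libraries of the other table format (y, log axis), with large subunit genes in blue and small subunit genes in red; the dashed line marks equal levels. mRpS9, mRpS26 and mRpL55 lie far to the right of the line, mRpL34 has the lowest level in the 11 libraries, 1.39 TPM, and mRpL9, mRpL10 and mRpL17 lie above the line.

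With age, 13 of the 73 genes fell and 0 rose, in limma's moderated test on log2(TPM + 1) with Benjamini-Hochberg adjustment over all 8743 genes tested. The 13 make up 17.8% of the members, against 15.4% of all genes tested called lower and 4.23% called higher, so the share of members is near the background. The median log2 fold change was −0.52 for the members and −0.32 for all genes tested. The members' fold change was negative for 68 of 73 and below the all-gene median for 53. The groups did not overlap, with the 30-day libraries lower, for 23 members, 31.5%, against a background of 22.9%, and did not overlap in the other direction for 0 members, against 5.76%.

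Among genes named for the small subunit, 4 of 26 fell, where 15.4% of all genes tested were called lower. The largest change belonged to mRpS18C, a homologue of bacterial S18 encoded on chromosome arm 3R at 30423974 to 30424556 (plus strand, FBgn0039765). It had 12.8, 5.24, 5.70 and 9.90 TPM at 30 days, against 38.1, 32.7, 29.1 and 30.3 TPM at 10 days. Every library at 30 days lay below every library at 10 days. The mean was 8.41 ± 3.60 TPM at 30 days and 32.6 ± 3.997 TPM at 10 days (SD, n = 4 each), and the log2 fold change was −1.91 ± 0.26 (SE; adjusted p = 0.00273). It stayed called, with adjusted p between 0.00114 and 0.0132, when any 1 library was left out.

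mRpS30, on X at 15786047 to 15788288, was the other member called whichever library was left out. In mammals its counterpart sits in the large subunit despite its name. It had 34.3, 39.0, 31.8 and 33.0 TPM at 30 days and 101, 48.7, 76.9 and 61.3 TPM at 10 days, which do not overlap, with a log2 fold change of −0.99 ± 0.22 (SE; adjusted p = 0.0108). mRpS14 fell by 0.78 on the log2 scale, with 22.3 ± 2.63 TPM at 30 days and 39.3 ± 8.65 TPM at 10 days (SD, n = 4 each; adjusted p = 0.0255). Its exons overlap Naa15-16 on the opposite strand by 32.0%. mRpS11 was at the edge of the threshold, with a log2 fold change of −0.70.

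Among genes named for the large subunit, 9 of 47 fell, where 15.4% of all genes tested were called lower. mRpL33 had 25.1, 14.99, 3.81 and 14.4 TPM at 30 days and 37.0, 29.0, 32.2 and 28.1 TPM at 10 days, a log2 fold change of −1.29 ± 0.40 (SE; adjusted p = 0.0382). mRpL35 had 22.7, 9.78, 13.6 and 13.4 TPM at 30 days and 39.7, 29.3, 30.8 and 25.2 TPM at 10 days, a log2 fold change of −1.06 ± 0.27 (SE; adjusted p = 0.0199). Neither pair of groups overlapped. mRpL20 fell by 1.09 and mRpL37 by 1.02 on the log2 scale. mRpL41, mRpL19, mRpL44, mRpL45 and mRpL46 fell by 0.69 to 0.94 on that scale, with adjusted p between 0.0192 and 0.0356.

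Members outside the call included some of the highest expressed. mRpS9 stood at 207 ± 21.9 TPM at 30 days and 233 ± 21.02 TPM at 10 days (adjusted p = 0.462), and mRpL55 at 113 ± 20.2 and 140 ± 41.1 TPM (SD, n = 4 each; adjusted p = 0.414). mRpL34, the member with the second most negative fold change, varied from 1.33 to 17.1 TPM at 30 days and from 5.59 to 28.3 TPM at 10 days. Its log2 fold change of −1.63 ± 0.66 (SE) was not called (adjusted p = 0.0905). mRpS25 had the most positive fold change, 0.14 on the log2 scale, with groups that overlap.

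The scale of the values bears on the number of calls. Where libraries were scaled by the median ratio of genes detected in all of them, the median of all genes moved to −0.05 and that of the members to −0.25, and only mRpS18C remained called (log2 fold change −1.62, adjusted p = 0.00632), against a background of 3.73%. In place of 13, the number called was 20 without 30-day library 1, 3, 3 and 4 without 30-day libraries 2, 3 and 4, and 5, 9, 6 and 7 without 10-day libraries 1, 2, 3 and 4. Of all genes, 1347 of 8743 were called lower with every library kept. That number was 1158, 665, 601 and 726 without 30-day libraries 1, 2, 3 and 4. It was 1150, 1501, 549 and 617 without 10-day libraries 1, 2, 3 and 4, with 8719 to 8784 genes tested in these fits.

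Library 1 of the 10-day lacZ group differed from the other 3 in further transcripts. Enteroendocrine markers summed to 2617 TPM in it, against 300 to 308 TPM in 10-day libraries 2 to 4, with all 10 of the listed genes at 1 TPM or more, and to 1063 to 1978 TPM at 30 days. Yp1, a yolk protein gene, stood at 90.9 TPM in it and below 1 TPM in 10-day libraries 2 to 4. lncRNA:roX1, a male-specific RNA of dosage compensation, stood at 10.4 TPM in it and at 10.5 TPM in 30-day library 1, the highest values of the midgut set. Without 10-day library 1, the members' median log2 fold change lay 0.016 above that of all genes, whereas with it the members lay 0.20 below. The part of these transcripts in the members' values was not tested. Progenitor markers summed to 1281 to 1636 TPM at 30 days and to 1941 to 2990 TPM at 10 days, and enterocyte markers, of which 10 of 11 were present, to 646 to 1156 TPM at 30 days and 307 to 503 TPM at 10 days.

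The median log2 fold change with age was −0.57 for large and −0.48 for small subunit genes. It was −0.59 for the 42 members that carry the number of a bacterial protein, with 7 called, and −0.44 for the 31 with a higher number, with 6 called. By chromosome arm it lay between −0.43 on X and −0.71 on 3R, where 7 of 21 members were called. For the 30 members without exon overlap it was −0.61, with 8 called, and for the 43 with exon overlap −0.45, with 5 called. Of all genes tested, whose median was −0.32, 15.4% were called lower. Under median-ratio scaling 0 of the 30 and 1 of the 43 were called, where 3.73% of all genes were called lower. These classes were compared by description only, and no share was computed for all genes of each arm.

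**Figure D3:**
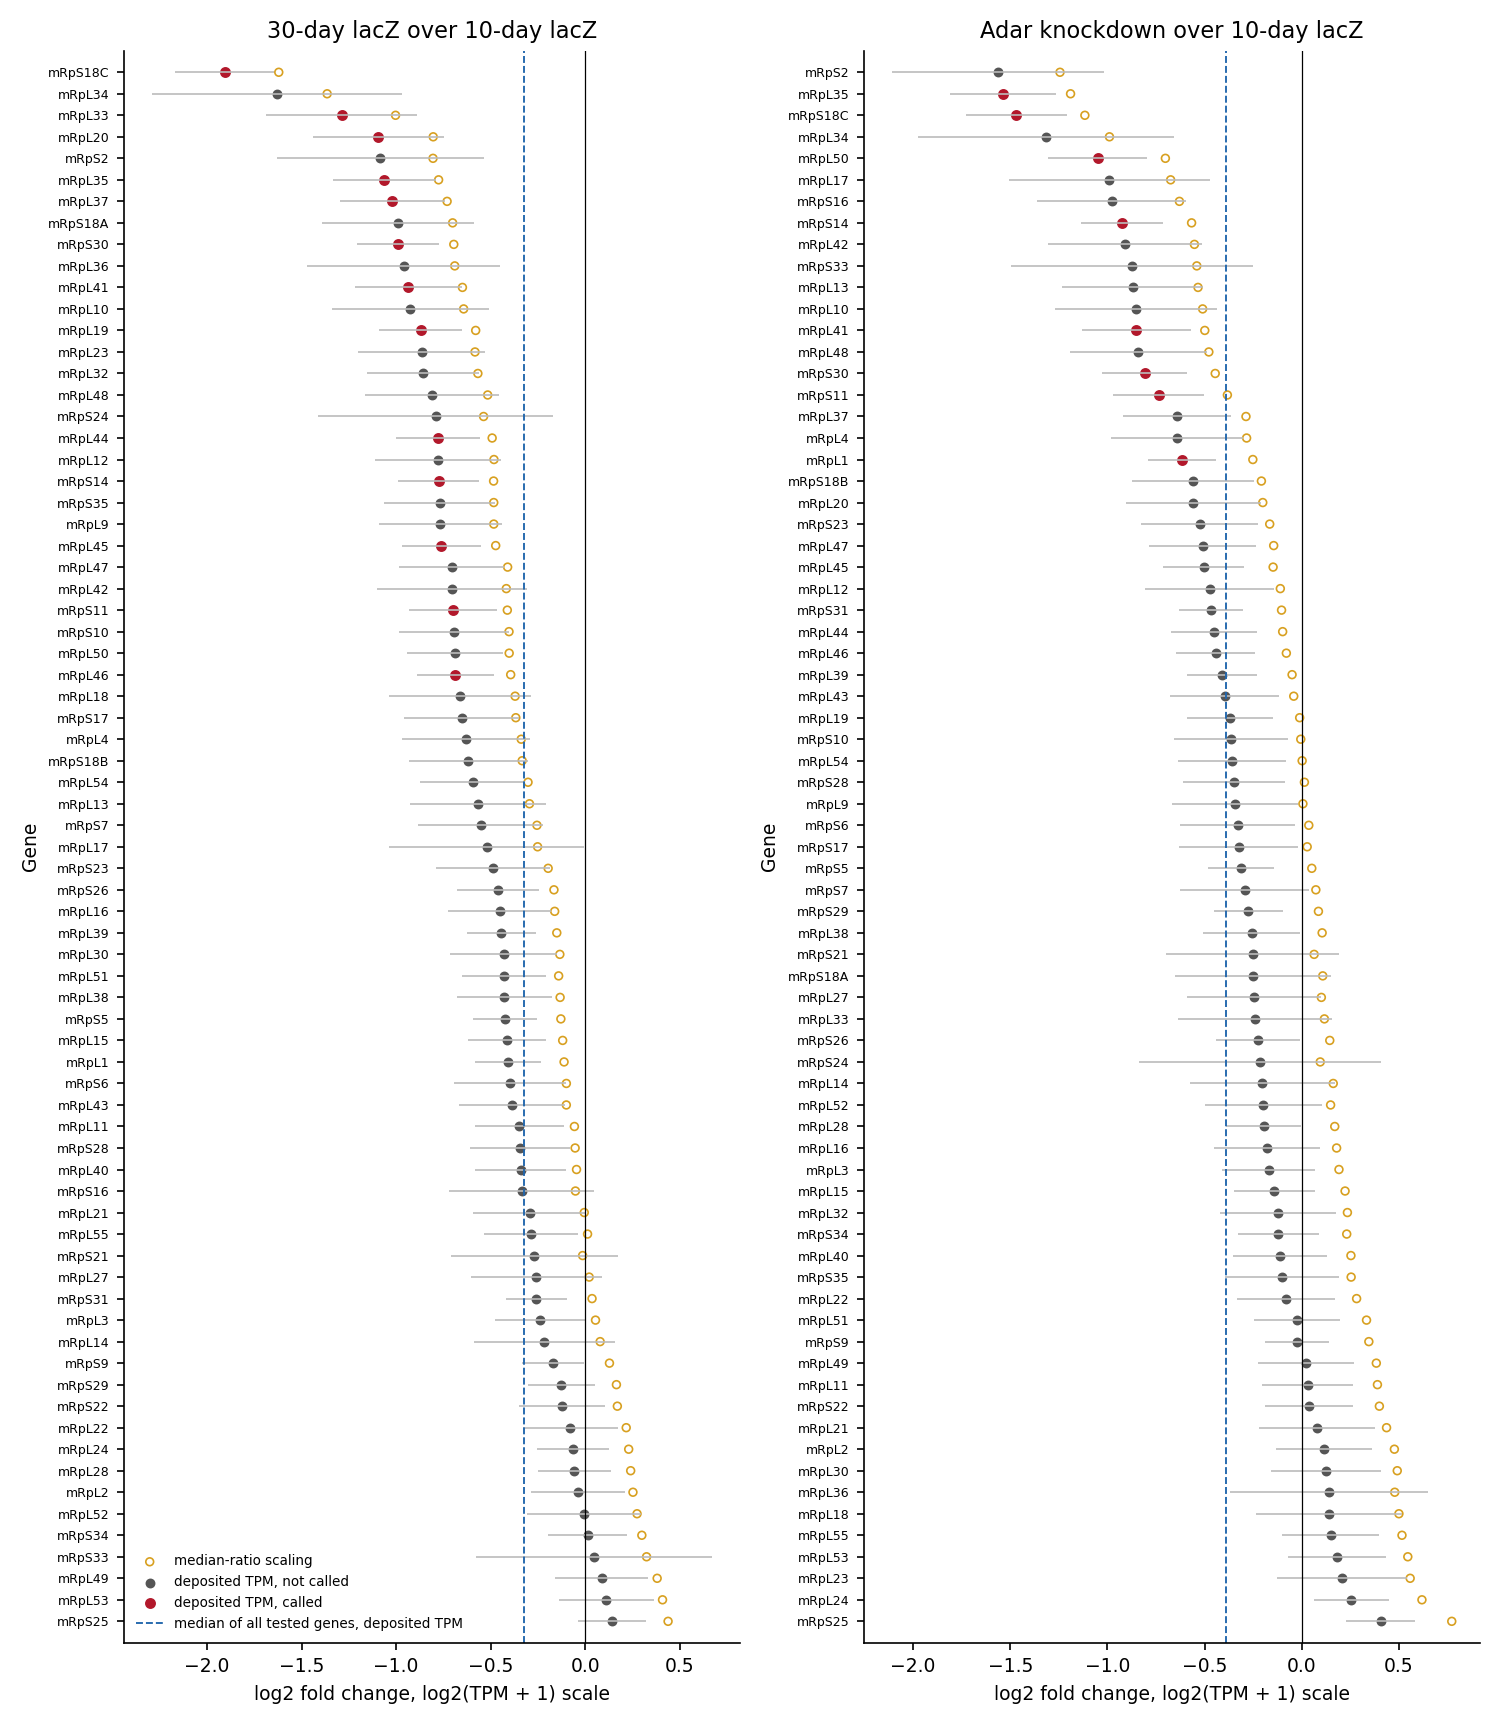
log2 fold changes of each of the 73 genes, on the log2(TPM + 1) scale, for 30-day lacZ over 10-day lacZ (left) and Adar knockdown over 10-day lacZ (right), each panel ordered by its own values. Filled points with bars are deposited TPM with SE (red where called), open circles are median-ratio scaling and the dashed line is the median of all tested genes; mRpS18C leads on the left at −1.91, and mRpS2, mRpL35 and mRpS18C lead on the right.

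After Adar knockdown, 8 of the 73 genes fell and 0 rose against the same 10-day lacZ libraries. Of all genes tested, 16.0% were called lower and 3.73% higher, so the members' share did not exceed the background. The members' median log2 fold change was −0.33 and that of all genes −0.39, and 60 of 73 members were negative. The groups did not overlap, with the knockdown lower, for 16 members, 21.9%, against 18.2% of all genes. The comparison shares its controls with the comparison of ages, so their values for a gene are not independent. In Adar knockdown libraries progenitor markers summed to 1335 to 1479 TPM, against 1941 to 2990 TPM in 10-day lacZ libraries. Enterocyte markers, of which 10 of 11 were present, summed to 564 to 1731 TPM, against 307 to 503 TPM. Enteroendocrine markers summed to 490 to 940 TPM in the knockdown. In 10-day lacZ library 1 they summed to 2617 TPM, and in libraries 2 to 4 to 300 to 308 TPM. Yp1 stood at 0.566, 33.4, 0.479 and 27.6 TPM in Adar knockdown libraries 1 to 4. The part of these marker differences in the members' values was not tested.

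mRpL35, a large subunit protein encoded on 3R at 22023527 to 22024341 (plus strand, FBgn0038923), showed the largest called change. It had 9.06, 8.74, 15.3 and 7.99 TPM in Adar knockdown libraries, against 39.7, 29.3, 30.8 and 25.2 TPM in 10-day lacZ libraries. The highest knockdown library lay below the lowest control. The log2 fold change was −1.54 ± 0.27 (SE; adjusted p = 0.00664). mRpS18C had 9.15, 10.6, 13.04 and 11.9 TPM in the knockdown, with a log2 fold change of −1.47 ± 0.26 (SE; adjusted p = 0.00674). Both stayed called with any 1 library left out and under median-ratio scaling, where the log2 fold change was −1.19 for mRpL35 (adjusted p = 0.0192) and −1.12 for mRpS18C (adjusted p = 0.0231) and 1.93% of all genes were called lower. Exons of each overlap an opposite-strand neighbour, CG6028 for mRpL35 and CG15536 for mRpS18C.

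mRpS14 had 19.6, 19.8, 15.3 and 26.3 TPM in Adar knockdown libraries and 50.9, 41.0, 32.9 and 32.5 TPM in 10-day lacZ libraries, a log2 fold change of −0.92 ± 0.21 (SE; adjusted p = 0.0150). mRpL50 had 8.85, 11.7, 14.4 and 10.4 TPM after knockdown and 37.8, 19.9, 22.2 and 20.7 TPM in 10-day lacZ libraries, a log2 fold change of −1.05 ± 0.26 (SE; adjusted p = 0.0176). Both pairs of groups were apart, and both genes stayed called with any 1 library left out. mRpL1, whose bacterial counterpart forms the mobile stalk beside the tRNA exit site, had 71.5 ± 5.36 TPM in the knockdown and 111 ± 20.2 TPM in the controls (SD, n = 4 each), a log2 fold change of −0.62. mRpS30 fell by 0.81, mRpS11 by 0.74 and mRpL41 by 0.85 on the log2 scale. The number called was 4 without 10-day library 3 and without 10-day library 4, and lay between 6 and 7 without any of the other 6 libraries. Of all genes, 302 were called lower without 10-day library 3 and 305 without 10-day library 4. In the fits without any of the other 6 libraries, 694 to 1697 were.

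mRpS2 had the most negative fold change but was not called. It had 6.67, 0.25, 8.16 and 11.1 TPM in Adar knockdown libraries and 12.7, 14.5, 19.3 and 17.7 TPM in 10-day lacZ libraries, with a log2 fold change of −1.56 ± 0.55 (SE; adjusted p = 0.0566). Knockdown library 2 held the lowest value. At the other end, mRpS25 had 116, 125, 94.3 and 141 TPM in the knockdown and 97.5, 84.1, 83.1 and 90.9 TPM in 10-day lacZ libraries, which overlap (0.41 ± 0.18 on the log2 scale, SE; adjusted p = 0.111). Under median-ratio scaling it was called higher (0.77, adjusted p = 0.0392), where 4.48% of all genes were called higher. With a replicate block added to that scaling, 0 members were called higher. It is named because it was the only member called in that direction, a choice made after its values were seen.

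Under median-ratio scaling the members' median after Adar knockdown was 0.04 and that of all genes −0.05, and 41 of 73 were positive. Relative to all genes, the members' median lay 0.06 higher with the deposited TPM and 0.08 higher under median-ratio scaling. With the deposited TPM it lay 0.24 above that of all genes without 10-day library 1. It lay 0.04 below it without knockdown library 4 or 10-day library 3, and 0.03 below it without 10-day library 4.

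Set against each other, Adar knockdown flies at 10 days and lacZ flies at 30 days differed in 0 of the 73 genes by limma with Benjamini-Hochberg adjustment, where 0.217% of all genes were called lower and 0.252% higher in the knockdown. Unadjusted p lay under 0.05 for 6 members and for 1031 of the 8743 genes tested. This comparison is the test of the difference between the age and the knockdown effects. The members' median log2 fold change was 0.16, against −0.06 for all genes, and 50 of 73 were positive.

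The 3 members with the smallest p were all from the large subunit. mRpL23, whose bacterial counterpart borders the exit of the nascent chain, had 26.5, 20.1, 23.998 and 38.4 TPM in Adar knockdown libraries and 22.3, 10.2, 9.40 and 9.86 TPM in 30-day lacZ libraries. The groups overlap through 30-day library 1, and the log2 fold change was 1.07 ± 0.33 (SE; adjusted p = 0.237). mRpL33 stood 1.05 and mRpL32 0.73 higher in the knockdown on the log2 scale (adjusted p = 0.308 and 0.346). For mRpS18C the difference was 0.44 ± 0.26 (SE; adjusted p = 0.547), and for mRpL35 it was −0.48 ± 0.27 (SE; adjusted p = 0.528). A p above the threshold does not show that the groups were alike.

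After Zn72D knockdown, 0 of the 73 genes were called in either direction, where 1.24% of the 8478 genes tested were called lower and 0.885% higher, and unadjusted p lay under 0.05 for 3 members and 1676 of all genes. The members' median log2 fold change was 0.12, against −0.17 for all genes, and 53 of 73 were positive. Relative to the all-gene median, 70 of 73 lay above it. Under median-ratio scaling the members' median was 0.29, that of all genes −0.01, and 71 of 73 were positive. The difference from the all-gene median was 0.29 with all libraries and ran from 0.12, without knockdown library 1, to 0.38, without knockdown library 2. Groups did not overlap, with the knockdown higher, for 12 members, 16.4%, against 8.53% of all genes. Only mRpL54 had groups apart in the other direction, against 19.8% of all genes.

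mRpS31, a small subunit protein on 3L at 16005193 to 16006599 (plus strand, FBgn0036557), had the smallest p of the members. It had 24.1, 24.7 and 26.2 TPM in Zn72D knockdown libraries, against 17.1, 16.5 and 15.6 TPM in their controls. The groups lay well apart, and the log2 fold change was 0.58 ± 0.16 (SE; adjusted p = 0.119). Under median-ratio scaling it was called (0.75, adjusted p = 0.0325), where 1.36% of all genes were called higher. mRpS14 had 29.3, 19.4 and 24.3 TPM in the knockdown and 16.6, 16.2 and 15.9 TPM in the controls (adjusted p = 0.193). mRpS22, a protein of the mitochondrial particle alone, had 43.5, 41.6 and 41.7 TPM in the knockdown and 35.2, 31.2 and 30.2 TPM in the controls (adjusted p = 0.232). Both had groups apart and were not called.

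The 3 members with the smallest p in the labelled E374A comparison are mRpS31, mRpS14 and mRpS22 as well, and its labelled overexpression libraries hold the same reads as the Zn72D controls. The 2 comparisons therefore share those values on opposite sides. In the libraries labelled E374A overexpression, mRpS31 had 16.9, 16.3 and 15.4 TPM, against 26.5, 36.6 and 54.5 TPM in those labelled control, in which Adar was high in libraries 1 and 2. Its log2 fold change was −1.16 ± 0.34 (SE; adjusted p = 0.546). mRpS22 had 34.9, 31.0 and 30.0 TPM in the libraries labelled overexpression and 44.4, 51.8 and 50.4 TPM in those labelled control (adjusted p = 0.583).

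In the labelled E374A comparison, 0 of 73 members were called, where 0.034% of the 8816 genes tested were called lower and 0.284% higher, and unadjusted p lay under 0.05 for 2 members and 527 of all genes. The members' median was −0.35 and that of all genes −0.36. For 27 members, 37.0%, the groups did not overlap with the labelled overexpression lower, against 16.1% of all genes. Without the labelled control 3, 0 members were called, where 1.19% of 8536 genes were called lower and 2.67% higher. The direction of every value in this comparison follows the labels, against which Adar ran.

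**Figure D4:**
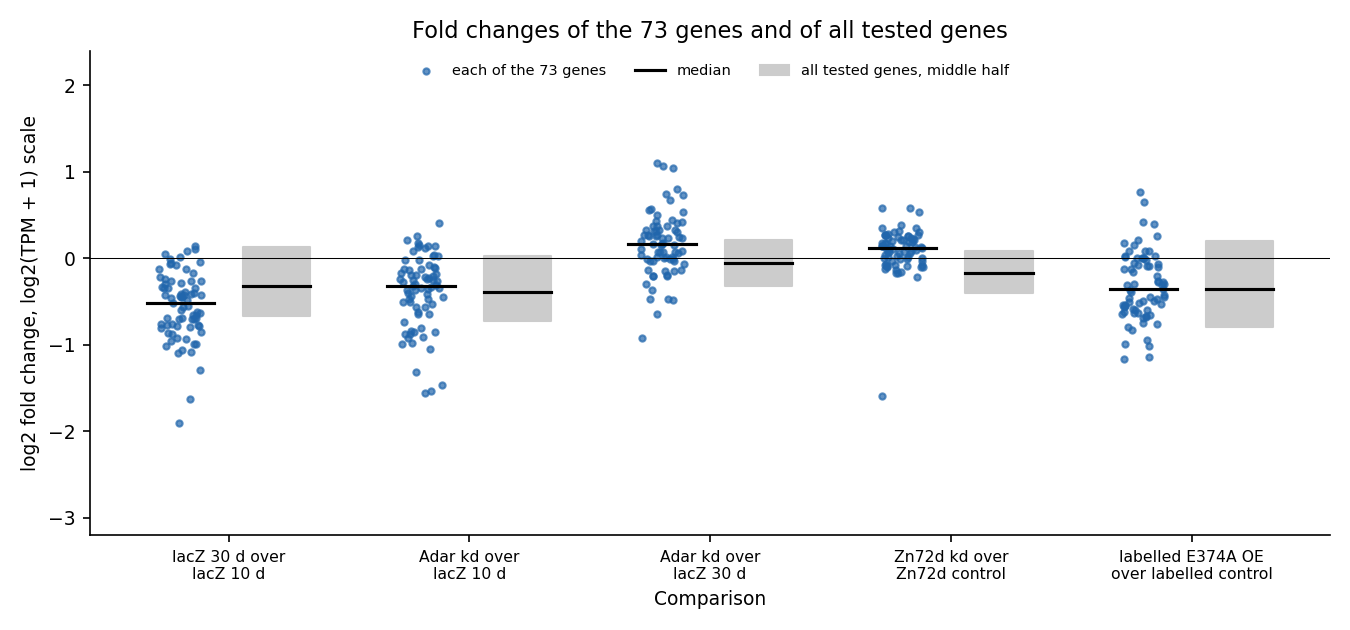
log2 fold changes, on the log2(TPM + 1) scale, of the 73 genes (points, with a bar at their median) beside the interquartile range and median of all tested genes (grey boxes), for the 5 comparisons. The members' median lies below the all-gene median with age (−0.52 against −0.32) and above it after Zn72D knockdown (0.12 against −0.17); the lone low point there is mRpL53.

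mRpL53 and an overlapping gene traded values between libraries. All of its exon bases (2R, 13954195 to 13955664, plus strand, FBgn0050481) lie within exons of CG33155 on the same strand. In the matched pair of the same reads, mRpL53 had 6.83 TPM in the library labelled E374A overexpression 1 and 53.2 TPM in Zn72D control 1. CG33155 had 50.6 and 4.90 TPM in the same 2 libraries, and the sums of both genes were 57.5 and 58.1 TPM. Each gene differed several-fold within the pair, and the sum by little. Zn72D knockdown library 2 listed mRpL53 at 0.522 TPM and CG33155 at 54.7 TPM. The log2 fold change of mRpL53 after Zn72D knockdown, −1.59 ± 1.57 (SE; adjusted p = 0.58), includes that library. The other knockdown libraries had 62.8 and 52.8 TPM, and the controls 53.2, 50.7 and 49.8 TPM. mRpL53 was chosen for this description after its values were seen.

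**Figure D5:**
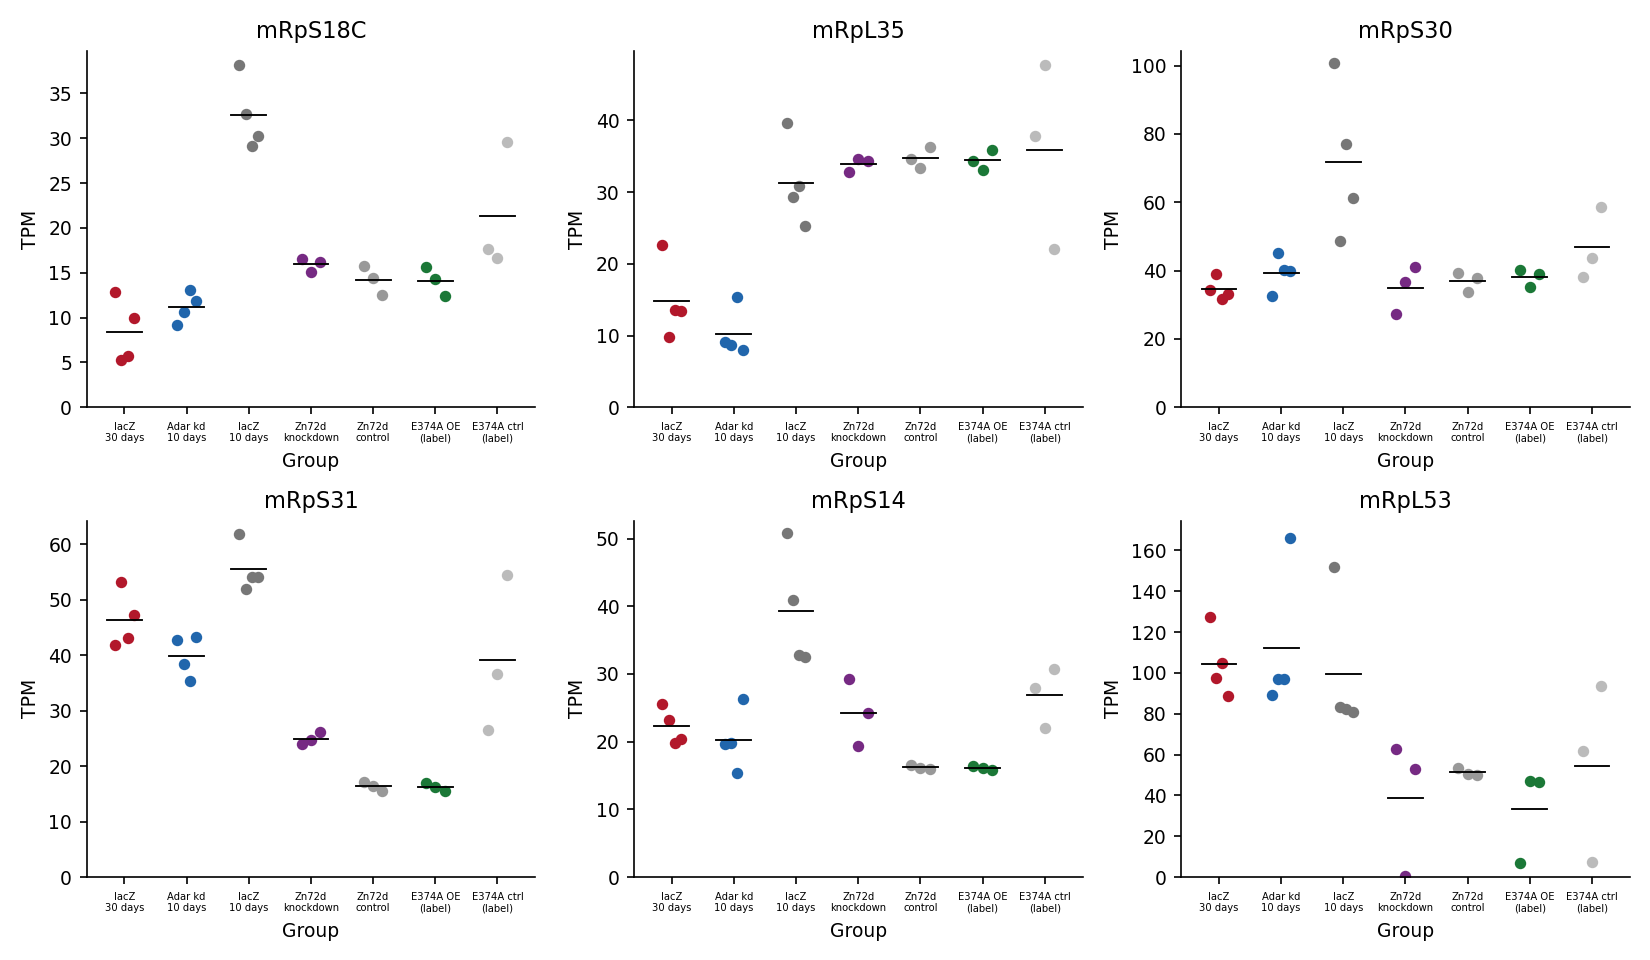
TPM of 6 members in every library by group, with a bar at each group mean. mRpS18C and mRpS30 are lower in 30-day lacZ than in 10-day lacZ libraries without overlap. mRpL35 has its lowest mean after Adar knockdown, with values that overlap those of 30-day lacZ libraries. mRpS31 and mRpS14 lie higher in Zn72D knockdown than in control libraries without overlap but were not called, and mRpL53 is near 0 or low in 3 libraries of the second set.

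Single libraries held members under 1 TPM. mRpS24 was listed at 0.0958 TPM in 30-day lacZ library 4 and mRpL17 at 0.809 TPM in Adar knockdown library 1. mRpL34 was under 1 TPM in Zn72D knockdown library 2, at 0.939 TPM, in Zn72D control 3, at 0.541 TPM, and in the labelled E374A overexpression 3 of the same reads, at 0.536 TPM. At 1 TPM or more in all 24 libraries were 68 of the 73. Replicates were not equally close: 10-day lacZ libraries 3 and 4 lay a median of 0.107 apart on the log2 scale over the members, against 0.191 to 0.806 for the other 10-day pairs. The labelled E374A control 3 lay 0.106 from 10-day lacZ library 4 and 0.665 and 0.580 from the labelled E374A controls 1 and 2.

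Other genes of mitochondrial gene expression, from lists chosen by function, were examined beside the members with age. Of the mitochondrial tRNA synthetases and their partners, 7 of 23 tested were called lower and 0 higher, with a median log2 fold change of −0.63, where 15.4% of all genes were called lower. TrpRS-m, which charges the tryptophan tRNA, had 6.01 ± 1.53 TPM at 30 days and 17.1 ± 6.14 TPM at 10 days (SD, n = 4 each; adjusted p = 0.0157). GatC and PolG2, counted in different lists, had nearly equal values in these groups, 14.7 ± 3.40 TPM each at 30 days (SD, n = 4). Of translation factors, 2 of 10 were called lower. mEFG1, the mitochondrial elongation factor G, had 15.9 ± 2.76 TPM at 30 days and 40.8 ± 2.71 TPM at 10 days (SD, n = 4 each), a log2 fold change of −1.32 (adjusted p = 0.00626), and mEFTs fell by 0.63.

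Against a background of 15.4% of all genes called lower, factors of mitochondrial transcription and RNA fell in 5 of 14 tested. Those of mitochondrial DNA replication fell in 3 of 5. TFAM, which packs the mitochondrial genome and takes part in its transcription, had 37.0 ± 7.12 TPM at 30 days and 74.3 ± 25.3 TPM at 10 days (SD, n = 4 each; adjusted p = 0.0318). mtDNA-helicase fell by 1.47 on the log2 scale (adjusted p = 0.00626). Import and chaperone genes fell in 4 of 15, Tom70 by 1.33 and Trap1 by 1.20 on the log2 scale among them. Under median-ratio scaling, 2 of the tRNA synthetases, 1 translation factor, 2 replication genes and 2 import genes were called lower, and 0 of the transcription and RNA genes, where 3.73% of all genes were called lower.

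Nuclear genes of oxidative phosphorylation had few calls. Of 65 tested, 0 were called lower and 1 higher with age, with a median of −0.28. Of all genes, 15.4% were called lower and 4.23% higher. Of 85 cytoplasmic ribosomal protein genes, 5 were called higher and 1 lower, with a median of 0.05, against the same background. Under median-ratio scaling 16 of the 85 were called higher, where 450 of 8736 genes tested were. Cell cycle genes fell in 9 of 20, with a median of −1.09, where 15.4% of all genes were called lower. Under median-ratio scaling 3 of the 20 were called lower, where 3.73% of all genes were. tko and bonsai, which encode mitoribosomal proteins S12 and S15 under other names, were not called. tko stood at 39.9 ± 3.57 TPM at 30 days and 70.2 ± 27.7 TPM at 10 days (SD, n = 4 each; adjusted p = 0.058), and bonsai at 55.9 ± 1.97 TPM at 30 days and 71.3 ± 33.6 TPM at 10 days (adjusted p = 0.529).

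In the same lists after Adar knockdown, which shares its controls, those called lower were 3 of 23 tRNA synthetases, 2 of 10 translation factors, 3 of 14 transcription and RNA genes, 1 of 5 replication genes and 4 of 15 import and chaperone genes, where 16.0% of all genes were called lower. Under median-ratio scaling 1 tRNA synthetase, 1 import gene and 0 of the others were called lower, where 1.93% of all genes were. The translation factors called were mIF3, at 24.6 ± 1.78 TPM in the knockdown and 48.3 ± 9.74 TPM in 10-day lacZ libraries (SD, n = 4 each), and mRRF1, the ribosome recycling factor, at 7.003 ± 1.49 TPM in the knockdown and 14.7 ± 5.51 TPM in the controls. Under median-ratio scaling neither was called, with adjusted p = 0.173 for mIF3 and 0.191 for mRRF1. Nuclear oxidative phosphorylation genes had 3 lower and 3 higher of 65, where 3.73% of all genes were called higher. Under median-ratio scaling they had 0 lower and 4 higher, where 4.48% of all genes were called higher. After Zn72D knockdown, 0 genes of the mitochondrial expression lists were called, and 3 of 85 cytoplasmic ribosomal protein genes were called higher, with a median of 0.43, where 0.885% of all genes were called higher. Under median-ratio scaling 0 of the 85 were called, where 1.36% of all genes were called higher. Nuclear oxidative phosphorylation genes had a median of 0.28 in that comparison, with 0 of 66 called.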

How the data were processed

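RNA-seq of 24 libraries was used as deposited. STAR 2.7.1a aligned the reads to dm6 and StringTie quantified them, per the submitters' processing notes. StringTie's version, annotation and strand setting are not stated in any source used here. The authors deposited a table per library with coverage, FPKM and TPM per gene. The deposited TPM sum to 1000000 in 11 libraries. In the other 13 the deposited TPM column is a signal over assembled loci plus annotated genes, and the annotated genes carry 881199 to 987040. They carry 881199 to 955176 in Adar knockdown, 935996 to 950892 in 30-day lacZ and 963356 to 984051 in 10-day lacZ libraries. The deposited TPM of these groups thus share no common total over annotated genes. The deposited coverage holds a few values below 0 in those 13 tables, so its unit there was recorded as other. Coverage over the deposited FPKM put aligned bases at 3.397 to 6.683 gigabases in the 13 libraries and 5.573 to 7.621 in the 11. Read counts did not enter, and counting error is therefore not stated.

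Genes were tested with limma 3.58.1 (statmod 1.5.0, R 4.3.3; lmFit, eBayes with trend and robust variances) on log2(TPM + 1) for genes with a mean of at least 1 TPM over the libraries of the fit. Tests were two-sided with Benjamini-Hochberg adjustment over all genes tested. Genes with an adjusted p under 0.05 are termed called. The 3 midgut groups shared a fit, and the other comparisons were fitted alone. Because of the added 1, fold changes of low genes are understated.

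The members and gene lists were chosen with earlier results of these data known. Genes are named if called (up to 8 per direction and comparison), if among the 3 smallest p where fewer than 3 were called, if among the 5 highest or lowest levels, if shifted by over 30 ranks, or if flagged among these. Members named for a count were chosen after their values were seen. Replicate numbers were not taken to pair samples, and whether libraries of the same number share an origin was not tested. Correlations of deviations from group means between midgut samples with the same number ran from −0.301 to 0.224, with 4 of 12 over 0.1. Between midgut samples with different numbers they ran from −0.293 to 0.372, with 8 of 36 over 0.1. The value of 0.224 was that of 30-day and 10-day lacZ libraries 1. Alternatives covered the pseudocount, filters, scalings, a replicate block and each library left out. Positions are those of the deposited tables, and exons those of the Ensembl annotation. Analysis used Python 3.11.15, pandas 2.3.3, numpy 2.4.6, scipy 1.17.1 and matplotlib 3.10.9.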

Additional observations from a re-analysis of the deposited data

Results flagged for a closer look

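Within groups of 4 libraries, 28 of 141 values had a library separated from the others beyond Dixon's 95% critical value, where chance marks about 1 in 20 groups. Of the 28, 17 concerned 10-day lacZ library 1 and 7 concerned 30-day lacZ library 1.

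In 10-day lacZ library 1 the summed level of the members was 5558 TPM, against 3214 to 3469 TPM in the other 3 libraries. The large subunit sum was 3477 TPM, the small subunit sum 2081 TPM and the median member 57.0 TPM. mRpL14 stood at 243 TPM, against 70.2 to 72.97 TPM in the others, and mRpS7 at 218 TPM, against 86.7 to 104 TPM. The same library was the highest of its group for mRpS26 (275 TPM), mRpL12 (135 TPM), mRpL38 (100.1 TPM), mRpS5 (98.1 TPM) and mRpL20 (69.9 TPM). It was also the highest for mRpL50 (37.8 TPM), mRpL10 (36.8 TPM), mRpS11 (35.5 TPM), mRpL27 (34.5 TPM), mRpL9 (32.8 TPM) and mRpS21 (14.9 TPM).

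In 30-day lacZ library 1 the summed level was 3346 TPM, against 2586 to 2707 TPM in the other 3, and the large subunit sum was 2105 TPM. mRpL19 stood at 31.9 TPM, mRpL45 at 23.8 TPM, mRpL23 at 22.3 TPM and mRpL34 at 17.1 TPM, each the highest of its group. mRpL30 went the other way, at 64.7 TPM against 92.5 to 94.2 TPM.

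The remaining 4 values belonged to Adar knockdown libraries. mRpS6 at 119 TPM and mRpS21 at 13.5 TPM were the highest of the group in library 4, mRpS11 at 22.8 TPM in library 2, and mRpL35 at 15.3 TPM in library 3.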

How the results depend on the processing

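With age, the 13 members called lower became 9 with annotated genes rescaled to 1000000, where 1037 of 8824 genes tested were called lower. They became 8 with no filter and 1 with median-ratio scaling, with or without a replicate block. With 10-day lacZ libraries 3 and 4 averaged they became 7. Leaving out 1 library gave 3 to 20, where 549 to 1501 of all genes were called lower. With median-ratio scaling as well it gave 1 to 3, where 92 to 278 of all genes were. The replicate block gave 13 again. After Adar knockdown, the 8 called lower became 4 with annotated genes rescaled to 1000000, where 716 of 8824 genes tested were called lower. They also became 4 with only the 2 groups in the fit and with libraries 3 and 4 averaged. They became 2 with median-ratio scaling, with or without the block, and 7 with the block alone. Leaving out 1 library gave 4 to 7, where 302 to 1697 of all genes were called lower. With median-ratio scaling as well it gave 0 to 2, where 24 to 244 of all genes were. The 0 called higher became 1 with median-ratio scaling, 0 with the block added, and 0 to 3 when a library was left out as well. For Zn72D knockdown, the 0 called higher became 1 with median-ratio scaling, with or without the block, and 0 to 1 with a library left out as well. For the labelled E374A comparison, the 0 called lower became 1 with median-ratio scaling without labelled control 3. With no filter, genes at 0 enter the all-gene median by construction, and the members' median relative to it reversed to −0.31 for both Adar knockdown and labelled E374A overexpression, against 0.06 and 0.0095. Without 10-day lacZ library 1 the members' relative median with age was 0.016. Over all genes, the replicate block moved the calls of the labelled E374A comparison from 28 to 9 and of Zn72D knockdown from 180 to 420. The cause of these shifts was not tested. Combinations with median-ratio scaling were chosen after seeing the data. Of single-gene values under the alternatives, 395 kept their side of the threshold, 214 lost a call, 5 gained a call and 0 reversed. Fold changes rest on TPM without counts, so the precision of members near 1 TPM is unknown.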
